A study of Sus scrofa with 2 samples.

Results

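The transcripts of the enzymes of glycolysis and glycogen metabolism were examined in biceps femoris, a hind limb muscle, of newborn cloned piglets. Entries were taken where the deposited symbol was HK2 or GAPDH, or where the deposited protein name held the name of an enzyme of glycolysis, of glycogen metabolism or of phosphorylase kinase. This gave 47 of the 12535 entries with reads in either library. Of these, 43 were enzymes, placed at 15 steps, and 4 matched by name only (PHGDH and a PHGDH-like entry, ENOPH1 and KHK). The symbol came from the deposited tables for 22 entries, from RefSeq for 7 and from the deposited Ensembl identifiers for 11, and 7 had none and are named by their protein.

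Glycolysis splits glucose into pyruvate through a chain of enzymes, and lactate dehydrogenase turns pyruvate into lactate. Muscle also stores glucose as glycogen, a branched polymer that glycogenin and glycogen synthase build and that glycogen phosphorylase shortens. Phosphorylase kinase, a complex with alpha, beta and gamma subunits, switches phosphorylase on when calcium rises in a contracting fibre. Fast fibres are known for high levels of many, though not all, of these enzymes.

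RNA of 3 abnormal cloned piglets was pooled into 1 library, and RNA of 4 normal cloned piglets, 3 according to the sample labels, into another. All were made by nuclear transfer from fibroblasts of male Large White pigs, born by caesarean section near term and sampled at day 1. The abnormal piglets had an enlarged tongue, could not stand or walk well and had a protruding navel, and the labels call their phenotype developmental failure. They and 2 of the normal piglets came from embryonic fibroblasts of one male, whereas the other 2 normal piglets came from ear fibroblasts of another, so that donor cells and phenotype cannot be fully told apart.

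With 1 library per group no difference had a replicate check, and the test compares the libraries, not the conditions. The deposited entries held 6.38 M (abnormal) and 6.52 M (normal) uniquely mapped reads in sum, which are the library totals used here. The study gives a larger number of unique reads for each group. In each pair of values that follows, the abnormal library comes first unless it is named. Transcripts of the mitochondrial genome took 36.0% and 46.1% of these library totals. Levels are in RPKM, reads per kb of transcript and per M reads, and differences are log2 ratios of the abnormal over the normal RPKM, with a 95% interval that covers counting error only. An entry was called where the Audic-Claverie test of its reads, Benjamini-Hochberg adjusted over all 12535 entries, gave a false discovery rate (FDR) of at most 0.001 and the log2 ratio was at least 1 in size. The muscle genes ACTA1, MYH1 and MYH2 were abundant in both libraries, with 431743 and 390261 reads for the actin ACTA1, and none of the 3 was called.

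Of the 47 entries, 10 were called higher in the abnormal library and 0 lower. This was 21.3% of the entries, beside 12.0% of all entries called higher and 1.45% called lower. Entries with fewer reads can hardly be called, and among the 36 members with at least 10 reads in both libraries 9 were called (25.0%), beside 18.2% of all 7493 such entries, and 31 were higher, beside 68.7%. The RPKM was higher in the abnormal library for 41 members, beside 66.0% of all entries, and lower for 6, of which 2 (KHK among them) had an unadjusted p below 0.05. The median log2 ratio of the members was 0.69, beside 0.35 over all entries, and with 10 reads in both libraries it was 0.63 beside 0.36. This shift of 0.36 toward the abnormal library was the median of entries at all levels, whereas the median of the 429 entries above 100 RPKM in both libraries was -0.07. Leaving the mitochondrial reads out of the totals lowers each log2 ratio of RPKM by 0.25. With the median ratio used to scale the libraries, which sets the median over all levels to 0, 34 members were higher. Of the 47 members 8 were then called, all among the 10, beside 6.48% of all entries called higher. Over all entries the number called higher fell from 1510 to 812.

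The size of the difference was not the same along the pathway, which is seen best in the levels of each entry. The 10 called entries lay at 7 of the 15 steps, and among them were HK2, both entries of GPI, a BPGM-like entry, LDHA, GYS1, PHKA1, PHKB and a PHKG1-like entry. The abundant enzymes of the lower part of glycolysis were higher in the abnormal library by less than the threshold, with LDHA as the exception.

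**Figure D1:**
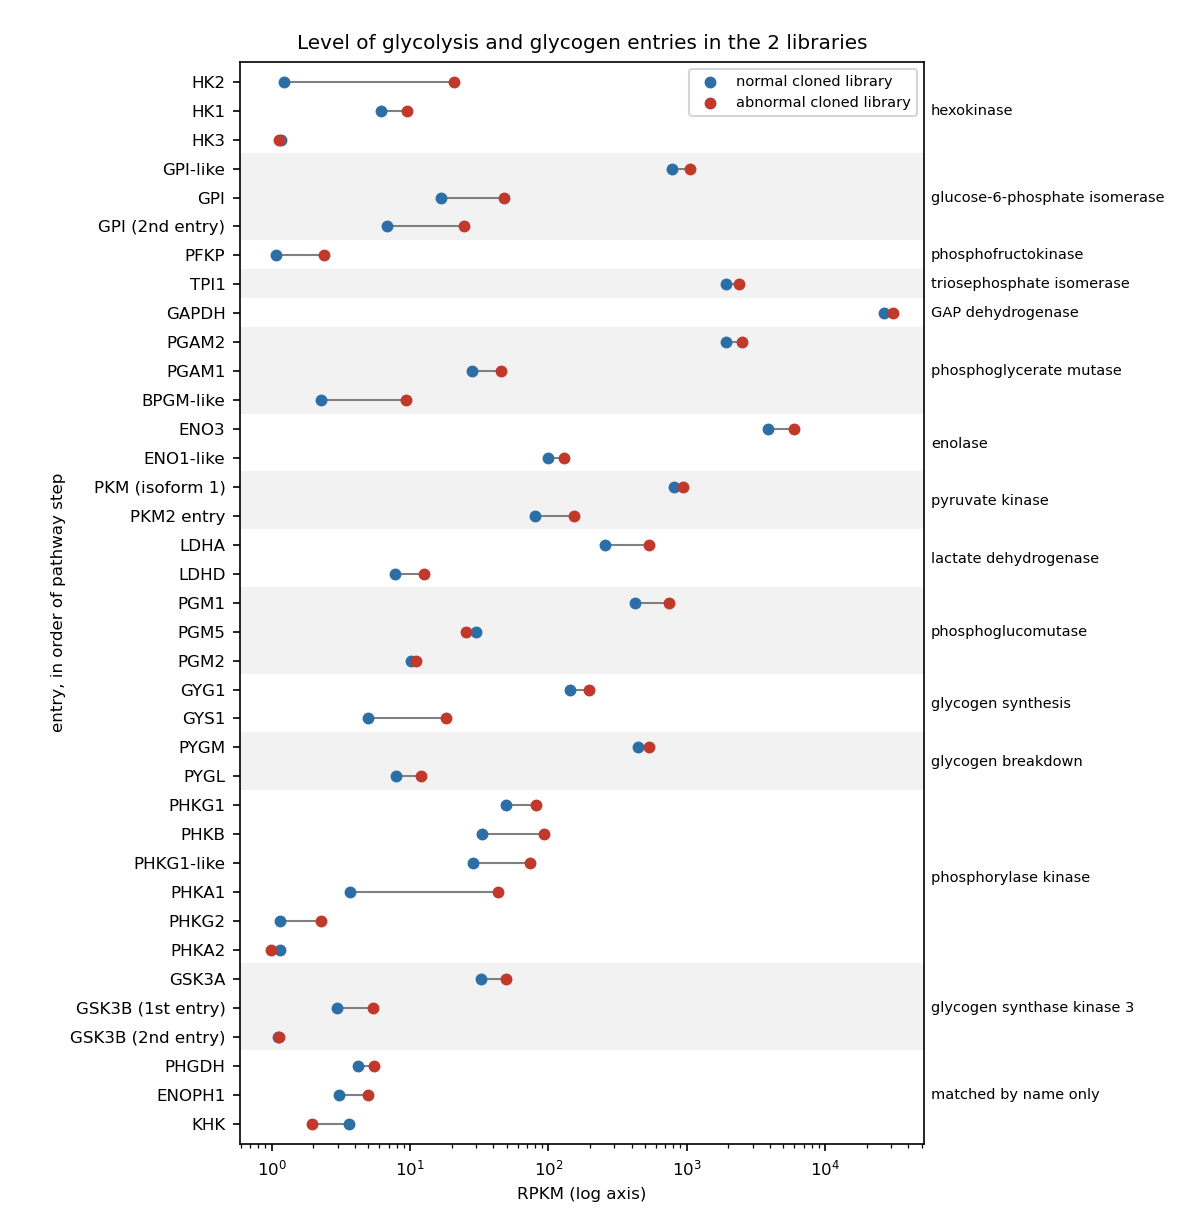
RPKM (log axis) of 37 glycolysis and glycogen entries with at least 10 reads over both libraries, in order of pathway step, with 1 point for the normal and 1 for the abnormal cloned library. The widest gaps among these belong to HK2 (1.23 in the normal and 20.7 in the abnormal library) and PHKA1 (3.71 and 43.3), while GAPDH lies at 30939 and 26672 in the abnormal and normal libraries.

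Hexokinase traps glucose in the cell as glucose-6-phosphate, and HK2 is the form known for insulin-responsive muscle. HK2 (chr3:62545454-62621130, Sscrofa9) had 411 reads in the abnormal library against 25 in the normal one, or 20.7 and 1.23 RPKM. Its log2 ratio of 4.07 (3.49 to 4.65), 16.8-fold, was the largest of the members with at least 10 reads in both libraries (FDR 4.89e-91, Audic-Claverie test with Benjamini-Hochberg adjustment). Reads covered 97.5% and 31.0% of the HK2 transcript, and its place among all entries ordered by RPKM was 2162 and 7546.

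HK1, the hexokinase of most tissues, had 190 and 125 reads, or 9.52 and 6.13 RPKM, and was not called (0.64, 0.31 to 0.96). The order of the pair was thus opposite in the libraries. The level of HK2 was 2.17 times that of HK1 in the abnormal library and 0.201 times in the normal one. The log2 difference between these ratios was 3.44 (2.77 to 4.10). This and the other pairs set against each other here were chosen after their values were seen. HK2 made up 63.5% and 12.1% of the summed hexokinase RPKM, and that sum was 32.6 and 10.2 RPKM. HK3 (22 and 23 reads) was scarce in both, and HKDC1 had 1 and 0 reads.

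Glucose-6-phosphate isomerase makes fructose-6-phosphate. Most of its 3798 and 2657 reads fell on a short GPI-like entry (chr6:29450991-29454573), with 3283 and 2487 reads over 486 bases of transcript, 1059 and 785 RPKM, which was not called (0.43, 0.36 to 0.51). The entry with the symbol GPI lies 6.09 kb away on the other strand. It had 339 and 120 reads, or 48.0 and 16.6 RPKM, and was called (1.53, 1.23 to 1.83, FDR 5.87e-25). A second entry of the same Ensembl gene had 176 and 50 reads and was called as well (1.85, 1.40 to 2.30). Reads covered only 16.2% and 16.0% of the GPI transcript, against 99.6% and 99.8% of the GPI-like entry, so that the isomerase is split over entries that differ in their ratio. Its summed level was 1132 and 809 RPKM, a log2 ratio of 0.48, which follows the entry that was not called.

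Phosphofructokinase, the main control point of glycolysis, was represented by an isoform of other tissues. The platelet form PFKP had 13 and 6 reads (1.15, -0.20 to 2.49) and was not called. The muscle form PFKM was not found under its symbol and was not analysed here, so that this step has no value for the muscle enzyme.

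From triose phosphates to pyruvate the enzymes are among the most abundant transcripts of muscle. GAPDH, which oxidizes glyceraldehyde-3-phosphate and is often used as a reference gene, had 105365 and 92805 reads, or 30939 and 26672 RPKM. It ranked 8 and 9 among all entries, and its log2 ratio was 0.21 (0.20 to 0.23). ENO3, the enolase of muscle, had 64212 and 42341 reads, or 5990 and 3866 RPKM, with a log2 ratio of 0.63 (0.61 to 0.65). GAPDH and ENO3 together held 66.4% and 68.6% of the reads of all members. Neither was called, although both intervals lie above 0, because both log2 ratios lie below 1. The same holds for 16 of the 26 members with an FDR of at most 0.001.

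TPI1, which interconverts the triose phosphates, had 15310 and 12803 reads, or 2370 and 1940 RPKM (0.29, 0.26 to 0.32). PGAM2, the phosphoglycerate mutase of muscle, had 14175 and 11117 reads, or 2503 and 1921 RPKM (0.38, 0.35 to 0.42). The pyruvate kinase entry PKM had 13823 and 12148 reads, or 933 and 803 RPKM (0.22, 0.18 to 0.25). All were close to the shift of all entries: after rescaling by the median ratio PGAM2 was at 0.02, and TPI1 at -0.07, PKM at -0.14 and GAPDH at -0.15 came out lower in the abnormal library. A direction for these enzymes therefore depends on the scaling, while ENO3 kept a ratio of 0.27.

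The less abundant relatives of these enzymes had larger ratios in some cases. PGAM1, the mutase of brain and other tissues, had 340 and 215 reads (0.69, 0.45 to 0.94) and was not called. The BPGM-like entry (chr18:12729520-12730122), named for the enzyme that makes 2,3-bisphosphoglycerate in red cells, had 36 and 9 reads, or 9.36 and 2.29 RPKM, and was called (2.03, 0.999 to 3.06, FDR 2.31e-04, Audic-Claverie test with Benjamini-Hochberg adjustment). The 4 red cell markers found had a summed level of 480 and 694 RPKM, none was called and none was at 0, and their part in the BPGM-like value was not tested. The ENO1-like entry had 244 and 193 reads (0.37, 0.10 to 0.64).

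Pyruvate kinase makes pyruvate and is spliced into M1 and M2 forms. The entry deposited as PKM2 overlaps the PKM entry on chromosome 7 and had 1689 and 897 reads, or 154 and 79.8 RPKM. Its log2 ratio of 0.94 (0.83 to 1.06) lay just below the threshold. The level of PKM was 6.08 and 10.1 times that of the PKM2 entry, a log2 difference of -0.73 (-0.85 to -0.60). Reads covered 34.9% and 34.8% of the PKM and 20.2% and 18.8% of the PKM2 transcript, and as both belong to 1 Ensembl gene, the reads cannot be assigned to a splice form.

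Lactate dehydrogenase A, the muscle subunit that reduces pyruvate to lactate, was the only member above 100 RPKM in both libraries that was called. LDHA (chr2:38036308-38047569) had 5973 and 2937 reads, or 531 and 255 RPKM. Its log2 ratio was 1.06 (0.99 to 1.12, FDR 1.66e-243, Audic-Claverie test with Benjamini-Hochberg adjustment), just above the threshold, and the interval reaches below it. After rescaling by the median ratio it was 0.70 and no longer called. Relative to GAPDH, LDHA was higher in the abnormal library by a log2 difference of 0.84 (0.78 to 0.91), which does not depend on the library totals. Only 18.8% and 16.1% of its transcript carried reads.

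The heart subunit LDHB had 1 read in each library, the testis subunit LDHC and a similar entry had at most 2 reads, and the mitochondrial D-lactate dehydrogenase LDHD had 159 and 100 reads (0.70, 0.34 to 1.06, not called). LDHA thus made up 97.5% and 96.97% of the summed RPKM of this step.

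Of the 10 members above 100 RPKM in both libraries, all 10 were higher in the abnormal library, with a median log2 ratio of 0.41. Over all 429 entries at this level the median was -0.07, with 43.4% higher and 6.29% called higher. Of these 10 members, 1 was called higher. After rescaling by the median ratio 6 of the 10 members were higher and their median was 0.05.

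**Figure D2:**
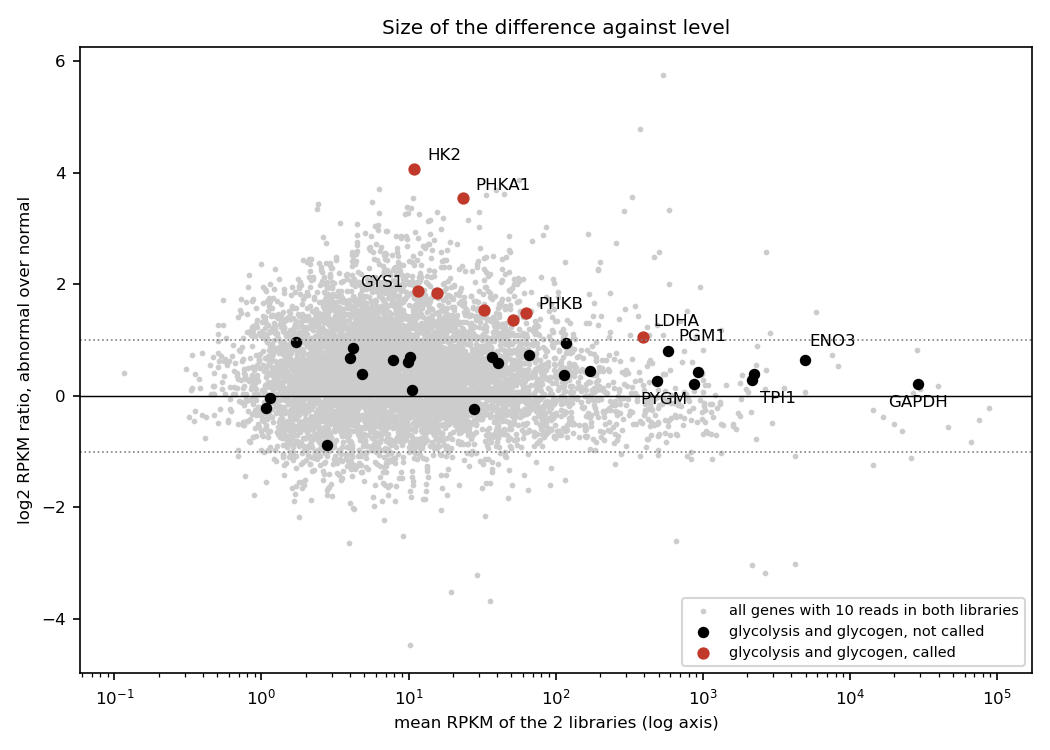
Log2 RPKM ratio (abnormal over normal) against the mean RPKM of both libraries (log axis) for all 7493 entries with at least 10 reads in both, in grey, with 34 glycolysis and glycogen entries among them in black (not called) and red (called). Dotted lines mark a log2 ratio of 1 in either direction. The abundant glycolytic entries lie between 0.21 and 1.06, and HK2 and PHKA1 stand above them at lower levels.

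The level of a member and its ratio were hardly related (Spearman's rho 0.05 across the 36 members, which share the same libraries, and -0.06 across all 7493 entries, a description with no test). Longer transcripts had larger ratios in general (rho 0.21 across all entries and 0.14 across the members). Each ratio was therefore also set against the running median of entries of like length. This left 8 of the 47 members called, beside 7.39% of all entries called higher. LDHA (0.70) and PHKB (0.78) were lost from the 10 called before. Over all entries the number called higher fell from 1510 to 926.

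**Figure D3:**
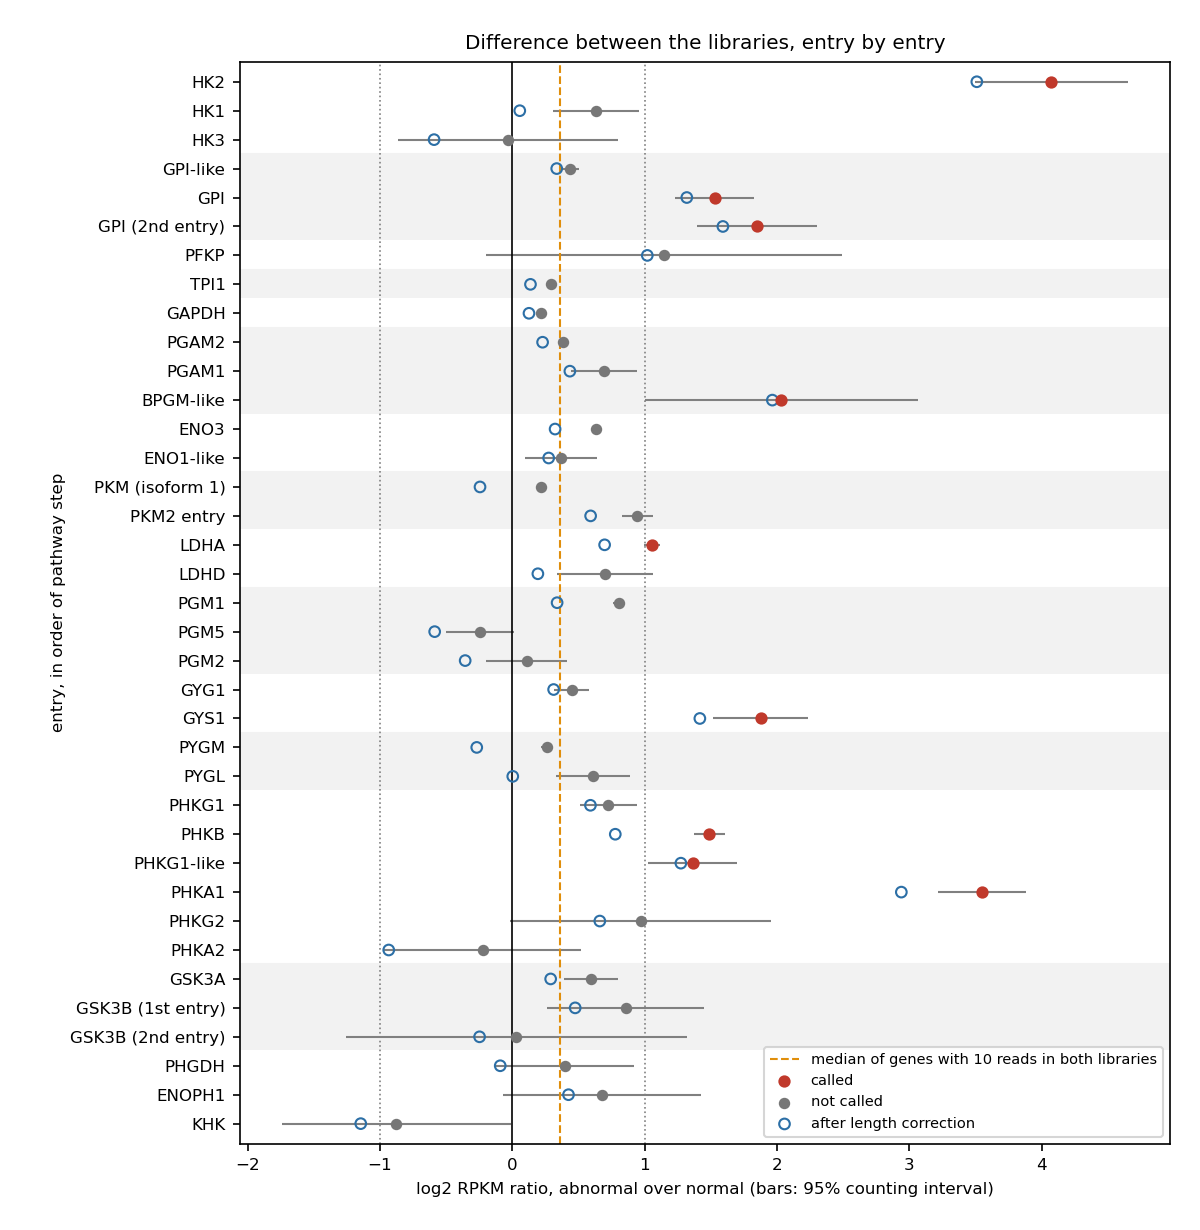
Log2 RPKM ratio (abnormal over normal) of 37 entries with at least 10 reads over both libraries, with 95% counting intervals as bars, called entries in red, others in grey and the ratio after length correction as open circles. The dashed line is the median of all entries with 10 reads in both libraries (0.36) and the dotted lines mark 1 in either direction. Length correction moves the long PHKB transcript from 1.49 to 0.78 and the short GPI from 1.53 to 1.32.

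Phosphoglucomutase links glycolysis to glycogen by converting glucose-6-phosphate to glucose-1-phosphate. PGM1 had 11421 and 6692 reads, or 741 and 425 RPKM, and was not called (0.80, 0.76 to 0.85). PGM5, a relative known as a structural protein of muscle attachments, had 221 and 267 reads (-0.24, -0.50 to 0.01), and PGM2 had 174 and 165 reads (0.11, -0.20 to 0.41). PGM1 made up 95.3% and 91.4% of the step.

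Glycogen synthesis starts on glycogenin, a protein that primes the chain, and glycogen synthase extends it. GYG1, coding for glycogenin, had 1074 and 805 reads, or 197 and 144 RPKM, and was not called (0.45, 0.32 to 0.58). GYS1, the muscle glycogen synthase (chr6:37768076-37822241), had 280 and 78 reads, or 18.2 and 4.98 RPKM, and was called (1.87, 1.51 to 2.24, FDR 1.98e-27, Audic-Claverie test with Benjamini-Hochberg adjustment). The level of GYG1 was 10.8 and 29.0 times that of GYS1, a log2 difference of -1.43 (-1.81 to -1.04). Reads covered 33.6% and 32.8% of the GYS1 transcript, and a second entry of this gene had 3 and 1 reads.

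Glycogen breakdown needs phosphorylase, which releases glucose-1-phosphate from chain ends. PYGM, the phosphorylase of muscle, had 9773 and 8337 reads, or 532 and 445 RPKM, and was not called (0.26, 0.22 to 0.30). Reads covered 26.5% of the PYGM transcript in both libraries. The liver phosphorylase PYGL had 251 and 168 reads (0.61, 0.33 to 0.89) and was not called.

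Of the 6 entries of phosphorylase kinase, the step with the most entries, 3 were called, beside 12.0% of all entries called higher. The subunits of this kinase differed from each other. PHKA1, the muscle form of the regulatory alpha subunit (chrX:57722614-57824659), had 903 and 79 reads, or 43.3 and 3.71 RPKM. Its log2 ratio was 3.55 (3.21 to 3.88), 11.7-fold (FDR 1.14e-179, Audic-Claverie test with Benjamini-Hochberg adjustment), and reads covered 97.3% and 56.0% of the transcript. PHKB, the beta subunit, had 2161 and 788 reads, or 93.0 and 33.2 RPKM, and was called (1.49, 1.37 to 1.60). Both are long transcripts, and after length correction PHKA1 was at 2.94 and PHKB at 0.78, the latter no longer called.

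PHKG1, the catalytic gamma subunit of muscle, deposited under the symbol PHGK, had 445 and 275 reads, or 81.6 and 49.4 RPKM, and was not called (0.73, 0.51 to 0.94). A PHKG1-like entry 14.7 kb away on the other strand had 249 and 99 reads, or 73.8 and 28.7 RPKM, and was called (1.36, 1.03 to 1.70, FDR 1.27e-15). The gamma and alpha subunits were thus at ratios of 1.88 and 13.3, a log2 difference of -2.82 (-3.22 to -2.42), and beta and alpha at 2.15 and 8.95. The levels of the 3 muscle subunits lay within 43.3 to 93.0 RPKM in the abnormal library and spread over 3.71 to 49.4 RPKM in the normal one.

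The liver forms of these subunits were scarce and not called, PHKA2 with 26 and 31 reads (-0.22, -0.97 to 0.52) and PHKG2 with 23 and 12 reads (0.97, -0.02 to 1.96). The log2 ratio of PHKA1 exceeded that of PHKA2 by 3.77 (2.95 to 4.59).

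**Figure D4:**
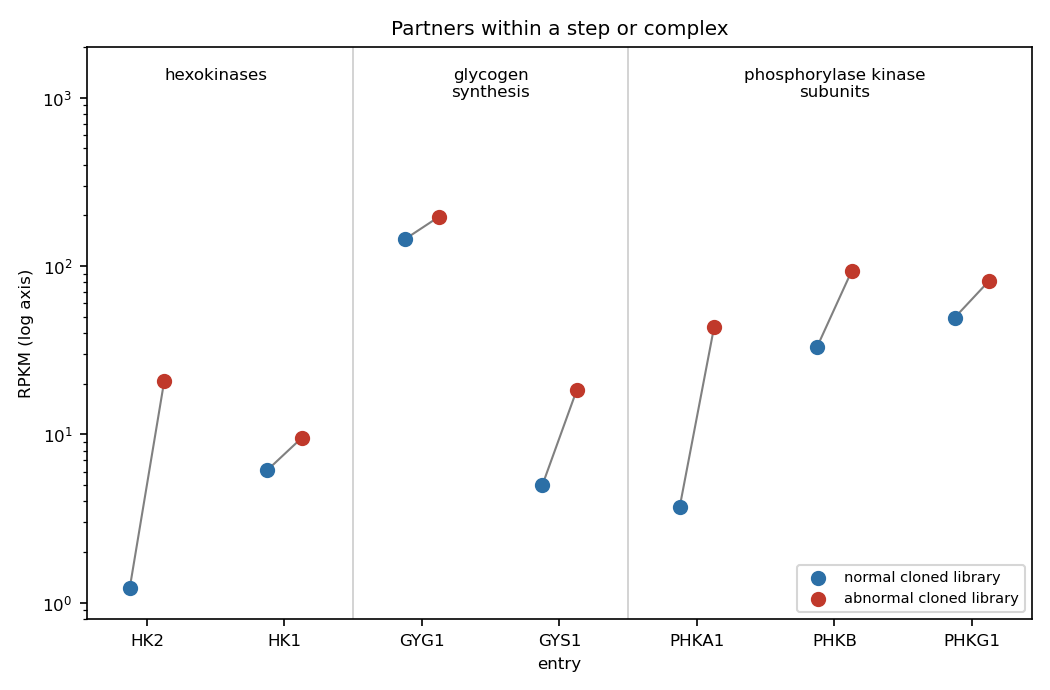
RPKM (log axis) of partners within a step or complex, with 1 point for the normal and 1 for the abnormal cloned library, joined by a line. Within each panel the entry of lower level in the normal library has the steeper line: HK2 against HK1, GYS1 against GYG1, and PHKA1 against PHKB and PHKG1. These sets were chosen after their values were seen. Of pairs not drawn, PGAM1 against PGAM2 and PYGL against PYGM show the same order. The ENO1-like entry against ENO3, PGM2 against PGM1 and PHKA2 against PHKA1 show the opposite one.

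Glycogen synthase kinase 3 phosphorylates glycogen synthase and lowers its activity. GSK3A had 470 and 318 reads (0.59, 0.39 to 0.80) and was not called. The entries of GSK3B had 62 and 35 reads (0.86, 0.26 to 1.45) and 9 and 9 reads (0.03), and were not called either. Of the entries matched by name only, PHGDH, an enzyme of serine synthesis, had 67 and 52 reads (0.40, -0.12 to 0.92), ENOPH1, of methionine salvage, had 36 and 23 reads (0.68), and KHK, the ketohexokinase of fructose metabolism, had 16 and 30 reads (-0.88, -1.74 to -0.01), and none was called. The 7 entries with fewer than 10 reads over both libraries, among them HKDC1, GAPDHS, LDHB and LDHC, had between 1 and 8 reads, and none was called.

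Summed by step, the RPKM was higher in the abnormal library at 14 of the 15 steps and at 11 of them after rescaling by the median ratio, when triosephosphate isomerase, GAPDH and pyruvate kinase were among those lower. The log2 ratios of the sums were largest for hexokinase (1.67), phosphorylase kinase (1.33), phosphofructokinase (1.15, from 19 reads) and lactate dehydrogenase (1.05). They were smallest among the higher steps for GAPDH (0.21), triosephosphate isomerase (0.29) and pyruvate kinase (0.30). The glycogen steps had 5 called of 18 entries and a median of 0.76, and the steps of glycolysis 5 of 25 and a median of 0.69. Of all entries 12.0% were called higher, and their median was 0.35. At least 10 reads in both libraries were found for 16 of the 18 glycogen entries and 17 of the 25 glycolysis entries. A difference between these parts of the pathway was not tested. The members took 4.002% (3.99 to 4.02) of the abnormal and 3.02% (3.01 to 3.04) of the normal reads, and 6.25% and 5.61% of the reads outside the mitochondrial genome.

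Other settings called between 0 and 10 of the 47 members. With the trimmed mean of M-values (TMM) as scaling 7 were called, beside 5.99% of all entries called higher, and with totals that leave out the mitochondrial transcripts 8 were called, beside 7.87%. LDHA and the BPGM-like entry were lost under each of these and under the median ratio, and TMM also lost the PHKG1-like entry. At a log2 ratio of at least 2, 4 remained, with HK2, PHKA1 and the BPGM-like entry among them, beside 3.31% of all entries. Under the exact test of edgeR, with the biological coefficient of variation set to 0.2, 3 members (HK2 and PHKA1 among them) were called, beside 1.94%. With 0.4 none was, beside 0.0160%. At 0.4, 5 of the 47 members had an unadjusted p below 0.05 in that test, beside 662 of all 12535 entries.

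The reads of several members fell on a small part of their transcript. Of 23 members with at least 100 reads in both libraries, 5 (GPI, PKM, PKM2, LDHA and PYGM) had less than 50% of the transcript covered in both, 21.7%, beside 4.96% of all 2885 such entries. Reads that map to more than 1 place were not counted, and 8 members belong to 4 Ensembl genes that the tables list more than once (GPI, PKM, GYS1 and GSK3B). How far copies of these genes set their counts was not tested, and the level of these entries is uncertain.

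Enzymes next to these steps that the names did not match were also looked up by symbol, after the values of the others were seen. PGK1, the phosphoglycerate kinase between GAPDH and PGAM, had 3457 and 2704 reads, or 334 and 256 RPKM (0.39, 0.31 to 0.46, not called), close to its neighbours in the chain. UGP2, which makes the UDP-glucose that glycogen synthase uses, had 3372 and 1088 reads, or 278 and 87.7 RPKM, and was called (1.66, 1.56 to 1.76). GBE1, the branching enzyme of glycogen, had 113 and 42 reads and was called (1.46, 0.95 to 1.97). The muscle fructose bisphosphatase FBP2, which runs the phosphofructokinase step backwards, had 2705 and 2046 reads (0.43, 0.35 to 0.52, not called), and ALDOC, the aldolase of brain, had 31 and 66 reads (-1.06, -1.67 to -0.45, not called).

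Genes that bring glucose into the pathway, set the fate of pyruvate or control glycogen formed a list of 64, of which 46 were found, as 49 entries. Of these, 18 entries of 17 genes were called higher and 0 lower, 36.7% beside 12.0% of all entries, with a median log2 ratio of 0.80. After median-ratio rescaling 12 of the 49 entries were called, all among the 18, beside 6.48% of all entries called higher, and the median was 0.44. The 6 entries that lost the call were those of PDP1, PDHX, PCK2, PPP1R3A and PRKAB1 and 1 of the entries of PDPR. The list holds UGP2 and GBE1 and was chosen with earlier results of these data known. Glucose transporters had 0 called of 4 entries, and SLC2A4, the insulin-responsive transporter of muscle, had 1059 and 724 reads (0.58, 0.44 to 0.72). The lactate carrier SLC16A1 had 617 and 149 reads, or 52.8 and 12.5 RPKM, and was called (2.08, 1.82 to 2.34).

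The kinases and phosphatases that switch pyruvate dehydrogenase, the entry of pyruvate into mitochondrial oxidation, had 4 called of 5 entries, and 2 after median-ratio rescaling. Of all entries 12.0% were called higher, and 6.48% after this rescaling. PDK4, a kinase that turns the complex off, had 7294 and 629 reads, or 604 and 51.0 RPKM, the largest ratio of the list's called entries (3.57, 3.45 to 3.68). PDP1 (1.05), a phosphatase that acts in the other direction, was called as well. So was PDPR, named for a regulatory subunit of this phosphatase, with ratios of 1.46 and 2.11 at its entries. After rescaling PDP1 was at 0.69 and, like the PDPR entry of 38 and 9 reads, no longer called. Of the complex itself PDHX was called (1.10, or 0.74 and not called after rescaling), DLAT (0.66) and DLD (0.56) were not. PCK2, the mitochondrial PEP carboxykinase, was called (2.16) at 35 and 8 reads, and not after rescaling.

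Subunits of AMPK, the energy sensor whose beta subunits bind glycogen, had 5 called of 8 entries, beside 12.0% of all entries called higher. PRKAG2, a regulatory gamma subunit, had 830 and 87 reads (3.28, 2.97 to 3.60), PRKAB2, the beta subunit of muscle, 177 and 28 (2.69, 2.12 to 3.26), and PRKAA2, the catalytic subunit of muscle, 318 and 114 (1.51, 1.20 to 1.82). PRKAG3, the gamma subunit of fast muscle, was called at 1.62 and PRKAB1 at 1.07, the latter at 0.71 and not called after rescaling.

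Proteins that bring phosphatase to glycogen, with the catalytic subunit PPP1CB, were called in 2 of 4 entries, beside 12.0% of all entries called higher. The called ones were PPP1R3C with 577 and 147 reads (2.004, 1.74 to 2.26) and PPP1R3A with 1725 and 742 reads (1.25, 1.12 to 1.37). PPP1R3A was at 0.89 and not called after rescaling. EPM2A, the glycogen phosphatase laforin, was called (1.64), and so was MLXIP, a glucose-sensing transcription factor, with 209 and 22 reads (3.28). The most abundant gene of the list, TXNIP, an inhibitor of glucose uptake, had 9876 and 7327 reads and was not called (0.46, 0.42 to 0.51).

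Markers of fibre type moved between the libraries as well. All 4 slow fibre genes found (MYH7, TNNC1, MYL2 and MYL3) were called lower in the abnormal library, with a summed level of 1922 against 16162 RPKM, 8.41-fold lower, and none was at 0. Of the 5 fast fibre genes found, 1 was called higher (PVALB, 1.94) and 0 lower. The RPKM was higher in the abnormal library for 3 of the 5 and lower for 2. The lower ones were MYH1 (-0.49, -0.51 to -0.48) and TNNC2 (-0.25, -0.27 to -0.24). The summed level of the 5 was 51437 and 49742 RPKM, of which MYLPF held 31441 and 28773. In bulk RNA fewer fibres of a type and less RNA per fibre cannot be told apart, and the part of fibre type in the differences of the glycolytic and glycogen enzymes was not tested.

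Markers of other tissues were present at different levels. Liver, which shares many of these enzymes, had 6 marker entries with a summed level of 43.4 and 65.7 RPKM. Of these sums APOA1 held 40.3 and 37.2 RPKM (0.12, not called), and the other 5 entries were lower in the abnormal library. Of the 6, 2 were called lower, ALB with 12 and 271 reads and FGB with 4 and 36, and 1 was at 0 in the abnormal library. The 4 adipocyte markers summed to 2.09 and 2.20 RPKM, 2 of them at 0 in the normal library. The 4 fibroblast markers summed to 1356 and 1508 RPKM and the 3 endothelial ones to 41.4 and 38.9 RPKM, with none at 0 and none called in either list. The part of these tissues in the results was not tested.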

How the data were processed

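RNA-seq of pooled biceps femoris was analysed, 1 library per group, grouped by the sample titles. The authors removed adaptors, reads with over 10% unknown bases and low-quality reads, and mapped the rest with SOAPaligner/soap2 (up to 2 mismatches). The authors deposited, per Sscrofa9 transcript, a raw count of unique reads. They also deposited the RPKM and the percent of each transcript covered. Entries absent from a library were taken as 0 reads, and 3 reads correspond to 0.470 (abnormal) and 0.460 (normal) RPM.

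The two-sided Audic-Claverie test was Benjamini-Hochberg adjusted over 12535 entries, with an RPKM of 0 set to 0.001. Intervals of log2 ratios were derived from the Wilson interval (95%) of the fraction of an entry's reads in the abnormal library. The test was tested on simulated data. These held counting error only, so they cannot show how the test behaves with variation between piglets. Genes named were HK2, GAPDH, called entries, the most abundant entry of each step and those with at least 100 reads in all, and the called and most abundant genes of the list. Entries between 10 and 100 reads and the genes looked up by symbol are named beyond this rule. Counts cover all 47 entries, of which 3 are not reported singly or plotted here. The members and lists were chosen with earlier results of these data known. Alternatives were median-ratio rescaling, TMM, totals without the 13 mitochondrial transcripts, at least 10 reads in both libraries, length correction by a running median of 501 genes, Fisher's test, edgeR (exact test, biological coefficient of variation set to 0.2 or 0.4), a log2 ratio of at least 2 and a pseudocount of 1. Python 3.11.15, numpy 2.4.6, pandas 2.3.3, scipy 1.17.1, matplotlib 3.10.9, R 4.3.3 and edgeR 4.0.16 were used.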

Additional observations from a re-analysis of the deposited data

How the results depend on the processing

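Against 10 members called, 8 were called after median-ratio rescaling, 7 with TMM, 8 without mitochondrial reads, 9 where both libraries needed 10 reads, 8 after length correction and 10 with Fisher's exact test. HK2, both GPI entries, GYS1 and PHKA1 were called in all of these. Against 18 list entries called, 12 were called after median-ratio rescaling, 12 with TMM, 14 without mitochondrial reads, 16 with 10 reads in both libraries, 14 after length correction and 18 with Fisher's exact test. A log2 ratio of at least 2 left 4 members and 8 list entries. With edgeR's exact test, an assumed biological variation of 0.2 left 3 members (HK2 and PHKA1 among them) and 6 list entries. A variation of 0.4 left 0 members and 0 list entries, and 2 entries in all were called higher. At 0.4, 5 of the 47 members and 8 of the 49 list entries had an unadjusted p below 0.05 in that test, beside 662 of all 12535 entries.

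The median log2 ratio of the members, 0.69, became 0.33 (median-ratio), 0.30 (TMM), 0.44 (without mitochondrial reads), 0.63 (10 reads), 0.34 (length) and 0.54 (pseudocount of 1). The members' share of reads outside the mitochondrial genome was 6.25% and 5.61%. The direction was opposite for TPI1 (-0.071 median-ratio, -0.10 TMM), GAPDH (-0.15, -0.18, and -0.033 without mitochondrial reads), PKM (-0.14, -0.18, -0.030, and -0.24 by length), PGM2 (-0.25, -0.29, -0.14, -0.36), PYGM (-0.10, -0.13, and -0.27 by length), PGAM2 (-0.012 TMM), the ENO1-like entry (-0.024 TMM) and PHGDH (-0.092 by length). The scalings subtract 0.36, 0.39 and 0.25 from every log2 ratio. No paired analysis was possible because each group had 1 library and the labels give no replicate numbers.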
